A study of Mus musculus with 14 samples.

Results

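Genes for collagens, laminins and the matrix of the meninges were followed in RNA-seq of mouse visual cortex. The set was chosen by symbol alone: every collagen chain (Col, a number, a and a number), every laminin chain (Lama, Lamb or Lamc and a digit), and 12 named genes, Dcn, Lum, Ogn, Fn1, Sparc, Bgn, Igf2, Igfbp2, Slc6a13, Slc6a20a, Aldh1a2 and Slc22a6. It held 43 of the 12874 genes in the table: 26 collagen chains, 7 laminin chains and 10 of the 12 named genes, while Fn1 and Slc6a13 were not analysed here. A total of 37 had a mean normalized count of 10 or more over the 14 mice and were tested. The other 6, Col5a1, Col20a1, Col24a1, Col27a1, Col28a1 and Lama3, lay under that minimum and are described by their counts only.

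The samples came from 14 male wild-type mice, offspring of 5xFAD breeding on a B6SJL background, which all groups shared. The labels give 1 h at 20Hz for 7 mice and 1 h at 40Hz for the other 7, and do not describe the stimulus. At 20Hz, replicates 1 to 3 were 5 months old and replicates 4 to 7 were 4 months old. At 40Hz, replicates 2 to 5 were 5 months old and replicates 1, 6 and 7 were 4 months old. The labels list no unstimulated group, so each value is a comparison of one frequency with the other. Each mouse carried an animal number of its own.

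Collagens are built from triple helices of 3 chains and form either fibrils, as in the meninges and around larger vessels, or sheets, as in the basement membrane under endothelium and at the brain surface. Laminins are cross-shaped trimers of an alpha, a beta and a gamma chain that lay down the first network of a basement membrane. The leptomeninges, a thin sheet of fibroblasts on the cortex, are known for fibrillar collagens, the small leucine-rich proteoglycans decorin and lumican, retinoic acid synthesis through Aldh1a2, and transporters such as Slc22a6 and Slc6a20a. In bulk tissue, fewer cells of a type and less RNA per cell cannot be told apart.

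Col4a1 and Col4a2 lie head to head, and their promoters are shown for that reason. In RefSeq on build GRCm38.p6, the stretch from 250 bases before to 50 after the start covers chr8:11312777-11313076 on the minus strand for Col4a1 and chr8:11312555-11312854 on the plus strand for Col4a2. Their transcript starts lie 21 bases apart, and the 78 bases in capitals are the ones both stretches share, read from opposite strands.
Col4a1: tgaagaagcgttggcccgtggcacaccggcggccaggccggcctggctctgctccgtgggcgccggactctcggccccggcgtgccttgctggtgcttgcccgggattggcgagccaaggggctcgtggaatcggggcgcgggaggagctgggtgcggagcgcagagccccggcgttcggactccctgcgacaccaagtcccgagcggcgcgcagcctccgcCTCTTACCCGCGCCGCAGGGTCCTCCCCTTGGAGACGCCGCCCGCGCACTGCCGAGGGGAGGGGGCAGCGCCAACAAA
Col4a2: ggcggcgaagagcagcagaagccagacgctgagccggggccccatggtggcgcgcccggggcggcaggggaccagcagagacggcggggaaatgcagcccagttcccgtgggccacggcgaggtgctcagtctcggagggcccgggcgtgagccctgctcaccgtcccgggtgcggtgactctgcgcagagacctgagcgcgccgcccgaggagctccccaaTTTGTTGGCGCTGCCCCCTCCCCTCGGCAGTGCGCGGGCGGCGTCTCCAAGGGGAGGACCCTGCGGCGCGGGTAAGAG
Both were rich in G and C, at 74.0% for Col4a1 and 73.7% for Col4a2, against a median of 52.7% over 32851 promoters in the table and of 60.7% over the 36 promoters that matched 31 of the 43 genes. Because the authors' build differs from that of the table, promoters were matched by symbol and no count was placed by coordinate.

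A second pair of promoters is shown for genes with wide ranges over the mice. Ogn (chr13:49607765-49608064, plus strand) encodes osteoglycin, a small leucine-rich proteoglycan, and its capitals mark 2 overlapping matches of TATAAA, one on each strand. Col8a1 (chr16:57754688-57754987, minus strand) encodes a chain of the network collagen VIII, and its capitals mark 4 matches of GGGCGG, all on the opposite strand.
Ogn: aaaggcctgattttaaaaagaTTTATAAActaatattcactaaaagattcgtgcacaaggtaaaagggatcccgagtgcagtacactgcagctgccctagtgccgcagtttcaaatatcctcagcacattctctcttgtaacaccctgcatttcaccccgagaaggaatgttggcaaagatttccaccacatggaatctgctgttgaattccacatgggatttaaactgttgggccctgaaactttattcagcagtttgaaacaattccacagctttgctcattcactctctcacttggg
Col8a1: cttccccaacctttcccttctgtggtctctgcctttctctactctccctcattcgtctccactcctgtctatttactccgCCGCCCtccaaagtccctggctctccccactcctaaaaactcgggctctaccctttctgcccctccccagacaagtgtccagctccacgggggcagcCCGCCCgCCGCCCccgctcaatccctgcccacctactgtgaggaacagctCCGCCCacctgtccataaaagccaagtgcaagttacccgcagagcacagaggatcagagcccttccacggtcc
On either strand, TATAAA was in 2 of the 36 promoters (Col3a1 and Ogn) and in 13.6% of all 32851. GGGCGG was in 20 of 36, or 55.6%, against 35.7% of all, and CCAAT in 9 of 36, or 25.0%, against 37.4% of all. These shares are a description of letters in 300-base windows.

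Recovered reads per sample ranged from 6108717 to 13744933. Summed counts of 7 cortical excitatory neuron markers ranged from 38669 to 49730 over the mice, and those of 5 inhibitory neuron markers from 7059 to 9618. Libraries stood apart in other tissues' markers: 7 choroid plexus markers summed to 5569 counts in replicate 1 and 33216 in replicate 2 at 20Hz, against 376 to 619 in the remaining 12 mice, and those of 5 dentate gyrus markers were 2913 in 20Hz replicate 2, 1602 in 20Hz replicate 7, 1391 in 40Hz replicate 4 and 185 to 595 in the rest. No marker of either list was at 0 in all mice. The summed counts of 10 meningeal fibroblast markers outside the set ranged from 1572 in 20Hz replicate 7 to 5230 in 40Hz replicate 1. The part of these other tissues in the results that follow was not tested, and values without the libraries are given where they differ.

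The standard deviation of log2(normalized count + 1) over the 14 mice had a median of 0.42 for them and of 0.26 for all 10689 tested genes. In 12 of the 37, or 32.4%, it exceeded 0.56, the level that 10% of all tested genes exceeded. The extremes were concentrated in a few mice. The lowest of the 14 values was in 20Hz replicate 7 for 13 genes, or 35.1% of the 37, where that mouse was lowest for 8.45% of all tested genes. The highest was in 20Hz replicate 2 for 10 genes, or 27.0%, against 9.97% of all tested genes.

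**Figure D1:**
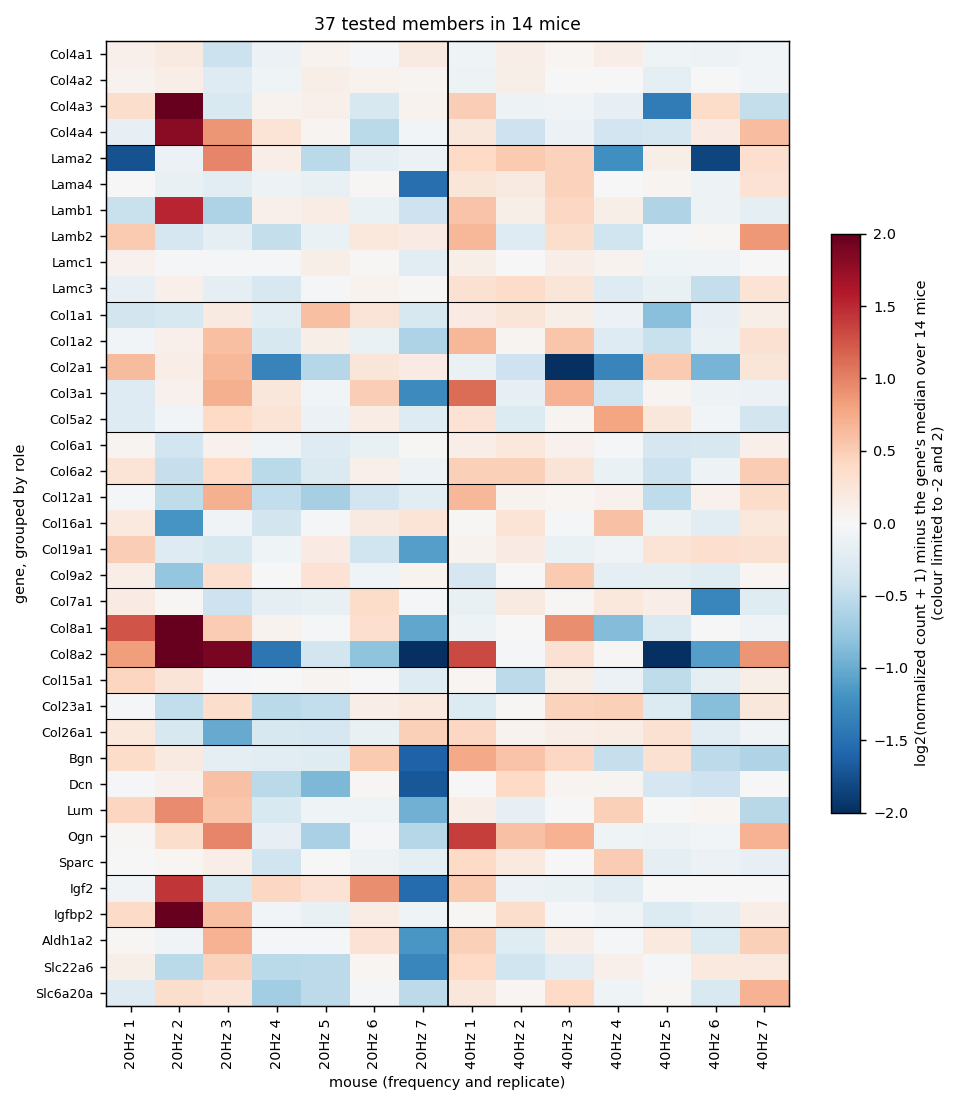
Columns are the 14 mice, rows are the 37 tested genes grouped by role, and colour gives log2(normalized count + 1) minus the gene's median over the mice, limited to -2 and 2. Col8a1, Col8a2, Col4a3 and Igfbp2 are darkest red in 20Hz replicate 2, and 20Hz replicate 7 is blue for Bgn, Dcn, Col3a1, Aldh1a2 and Slc22a6.

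The collagen IV chains of the common vascular basement membrane, Col4a1 and Col4a2, were among the steadiest genes of the set. Col4a1 ranged from 858 to 1312 normalized counts at 20Hz (median 1215) and from 1077 to 1268 at 40Hz (median 1114). Its mean was 1161 ± 161 (SD, n = 7) at 20Hz and 1157 ± 83.6 (SD, n = 7) at 40Hz. Both groups overlapped almost wholly, with the lowest value in 20Hz replicate 3 and the highest in 20Hz replicate 2. For Col4a2 the counts were 1042 to 1376 at 20Hz (median 1316) and 1100 to 1353 at 40Hz (median 1245), and the same mice held the extremes. The log2 difference, 40Hz minus 20Hz, was -0.048 ± 0.070 (SE) for Col4a2, with a 95% interval of -0.19 to 0.10.

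Col4a3 and Col4a4, chains of the second collagen IV network known from kidney and other specialised basement membranes, were set apart in 1 mouse. Col4a3 stood at 231 normalized counts in 20Hz replicate 2 and between 16.0 and 26.0 in the other 6 mice at 20Hz, with 6.98 to 28.7 at 40Hz. Col4a4 was 90.7 in the same mouse and 17.0 to 46.9 in the rest of the 20Hz group, with 18.7 to 39.0 at 40Hz. That mouse held the highest choroid plexus sum, 33216, and the highest dentate gyrus sum, 2913; their part in these values was not tested. In 20Hz replicate 1, with the second highest choroid plexus sum, Col4a3 was 26.0 and Col4a4 was 22.4, within the range of the other mice.

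Among the laminins, Lamc1, the gamma chain of most laminin trimers, was the steadiest gene of the set. It ranged from 1106 to 1400 normalized counts at 20Hz (median 1268) and from 1215 to 1402 at 40Hz (median 1288), a 1.27-fold span over all 14 mice. Lamc3, another gamma chain, lay between 274 and 369 at 20Hz and between 247 and 444 at 40Hz. Lamb2, a beta chain of vascular and pial basement membranes, ranged from 25.9 to 53.1 at 20Hz and from 27.5 to 67.4 at 40Hz. The groups overlapped for each of these. Lamb1, the beta chain of early basement membranes, was 49.1 in 20Hz replicate 2 and 10.3 to 18.3 in the other 20Hz mice, against 10.5 to 25.0 at 40Hz. Lama2, the alpha chain of pericyte and muscle laminin, ranged from 4.35 in 40Hz replicate 6 to 36.6 in 20Hz replicate 3, or from 4 to 32 reads, so that counting error alone was large.

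Lama4, the alpha chain of endothelial laminin, had the smallest p of the set between the frequencies. At 20Hz, replicates 1 to 7 gave 49.6, 44.4, 42.4, 45.9, 44.4, 50.1 and 16.6 normalized counts. At 40Hz, replicates 1 to 7 gave 58.2, 56.0, 68.4, 48.9, 51.2, 45.7 and 60.3. A total of 6 of the 20Hz mice lay close together, replicate 7 lay far under them, and the groups overlapped between 45.7 and 50.1. The means were 41.9 ± 11.5 (SD, n = 7) and 55.5 ± 7.69 (SD, n = 7), and the log2 difference was 0.46 ± 0.20 (SE), with a 95% interval of 0.04 to 0.87. Its limma p was 0.0338, and the Benjamini-Hochberg adjusted p over all tested genes was 0.919. Without 20Hz replicate 7 the difference was 0.25 on the log2 scale.

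The fibrillar collagens, which bear the tension of the dura, the leptomeninges and vessel walls, shared some of their extremes. Col1a2, the second chain of collagen I, ranged from 209 in 20Hz replicate 7 to 489 in replicate 3 at 20Hz (median 311), and from 235 in replicate 5 to 512 in replicate 1 at 40Hz (median 332). Col3a1, the chain of collagen III, was likewise lowest in 20Hz replicate 7, at 10.6, and highest in 40Hz replicate 1, at 59.7, with group medians of 28.7 and 25.0. Col1a1, the first chain of collagen I, ranged from 123 to 240 at 20Hz (median 136) and from 88.4 to 187 at 40Hz (median 172). Its highest value was in 20Hz replicate 5, unlike that of Col1a2, and its lowest was in 40Hz replicate 5, which was also the lowest 40Hz mouse for Col1a2. Col5a2, a chain of the collagen V that nucleates fibrils, ranged from 86.2 to 135 at 20Hz and from 79.9 to 178 at 40Hz. Col2a1, best known from cartilage, was low throughout, at 4.70 to 21.8 and 2.39 to 19.8, and its 9.12-fold span rested on 3 to 19 reads per mouse.

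Collagen VI, which forms beaded filaments around vessels and in meninges, was followed through 2 chains. Col6a1 ranged from 840 in 20Hz replicate 2 to 1275 in 40Hz replicate 2. Col6a2 ranged from 196 to 378 at 20Hz (median 266) and from 213 to 408 at 40Hz (median 344), with a log2 difference of 0.24 ± 0.17 (SE). The groups overlapped for both chains.

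Collagen VIII chains, which build hexagonal networks and are known from the membrane of the corneal endothelium, had wide ranges: Col8a2 spanned more of the log2 scale than any other tested gene of the set, followed by Col4a3 and Col8a1. Col8a1 was 331, 1785 and 196 normalized counts in 20Hz replicates 1 to 3, 66.6 to 175 in the other 4 mice at 20Hz, and 75.2 to 262 at 40Hz. Col8a2 was 15.4, 143 and 33.2 in 20Hz replicates 1 to 3, 0 to 6.09 in replicates 4 to 7, and 1.16 to 21.9 at 40Hz. For Col8a1, the 2 highest of all 14 mice were the 2 with high choroid plexus sums, in the same order; whether that tissue gave these counts was not tested. The log2 difference between the frequencies was -0.74 ± 0.59 (SE) for Col8a1 and -0.22 ± 0.93 (SE) for Col8a2, with intervals from -2.03 to 0.55 and from -2.21 to 1.77. Without 20Hz replicates 1 and 2 the difference for Col8a1 was -0.026, and without replicate 2 alone it was -0.24. Without replicate 2, that for Col8a2 was 0.42. Col7a1, the anchoring fibril collagen, ranged from 25.2 to 43.7 at 20Hz and was 13.1 in 40Hz replicate 6 and 28.4 to 39.4 in the other 40Hz mice.

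The remaining collagens had narrower ranges. The fibril-associated Col12a1, a collagen XII chain found beside collagen I fibrils, ranged from 129 to 334 at 20Hz (median 156) and from 143 to 324 at 40Hz (median 216). Col19a1, a fibril-associated collagen known from hippocampal and cortical interneurons, ranged from 36.3 to 111 at 20Hz (median 65.7) and from 71.6 to 100.1 at 40Hz (median 88.0), with a log2 difference of 0.35 ± 0.18 (SE) and a limma p of 0.0678. Col16a1 and Col9a2 were both lowest in 20Hz replicate 2, at 17.6 and 111. The multiplexin Col15a1, a collagen of vascular basement membrane zones, ranged from 109 to 175 at 20Hz (median 131) and from 90.7 to 142 at 40Hz (median 119), a log2 difference of -0.22 ± 0.13 (SE). Col26a1 ranged from 37.8 to 107 at 20Hz and from 66.4 to 103 at 40Hz, and the transmembrane Col23a1 from 145 to 270 and from 116 to 295. Each of these pairs of groups overlapped.

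The small leucine-rich proteoglycans, which coat collagen fibrils and set their spacing, were among the genes lowest in 20Hz replicate 7. Decorin (Dcn) was 22.7 there and 40.0 to 115 in the other 20Hz mice, against 56.6 to 99.6 at 40Hz. Lumican (Lum) was 33.3 there and 52.9 to 128 in the others, against 44.4 to 91.9 at 40Hz. Biglycan (Bgn) was 9.08 there and 25.2 to 43.7 in the others, against 19.5 to 51.4 at 40Hz. The same mouse had the lowest sum of the other meningeal fibroblast markers, 1572; its part in these values was not tested. Osteoglycin (Ogn) was not lowest there: it ranged from 369 in replicate 5 to 1144 in replicate 3 at 20Hz (median 567), and from 539 to 1505 at 40Hz (median 871). Sparc, a collagen-binding protein also made by glia and endothelium, was steadier, at 71.7 to 104 at 20Hz and 82.6 to 136 at 40Hz.

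Igf2, an imprinted growth factor made by leptomeninges and choroid plexus in the adult brain, ranged from 33.3 in 20Hz replicate 7 to 268 in 20Hz replicate 2. At 40Hz it was 144 in replicate 1 and 86.0 to 100.1 in the other 6 mice. Igfbp2, which binds insulin-like growth factors, was 580 in 20Hz replicate 2 and 102 to 173 in the other 20Hz mice, against 94.3 to 145 at 40Hz. In 20Hz replicate 1, the mouse with the second choroid plexus sum, Igf2 was 94.5 and Igfbp2 was 149.

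The leptomeningeal transport and retinoid genes had 40Hz minus 20Hz differences above 0 in all 3 cases, none past the threshold. Slc22a6, the organic anion transporter OAT1, ranged from 118 to 403 at 20Hz (median 202) and from 221 to 384 at 40Hz (median 313). Slc6a20a, a transporter of proline and related imino acids, ranged from 61.2 to 129 at 20Hz (median 83.9) and from 80.5 to 163 at 40Hz (median 103). Aldh1a2, the enzyme that makes retinoic acid, ranged from 103 to 377 at 20Hz (median 229) and from 193 to 325 at 40Hz (median 255). For Slc22a6 and Aldh1a2 the lowest mouse was 20Hz replicate 7 and the highest 20Hz replicate 3.

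**Figure D2:**
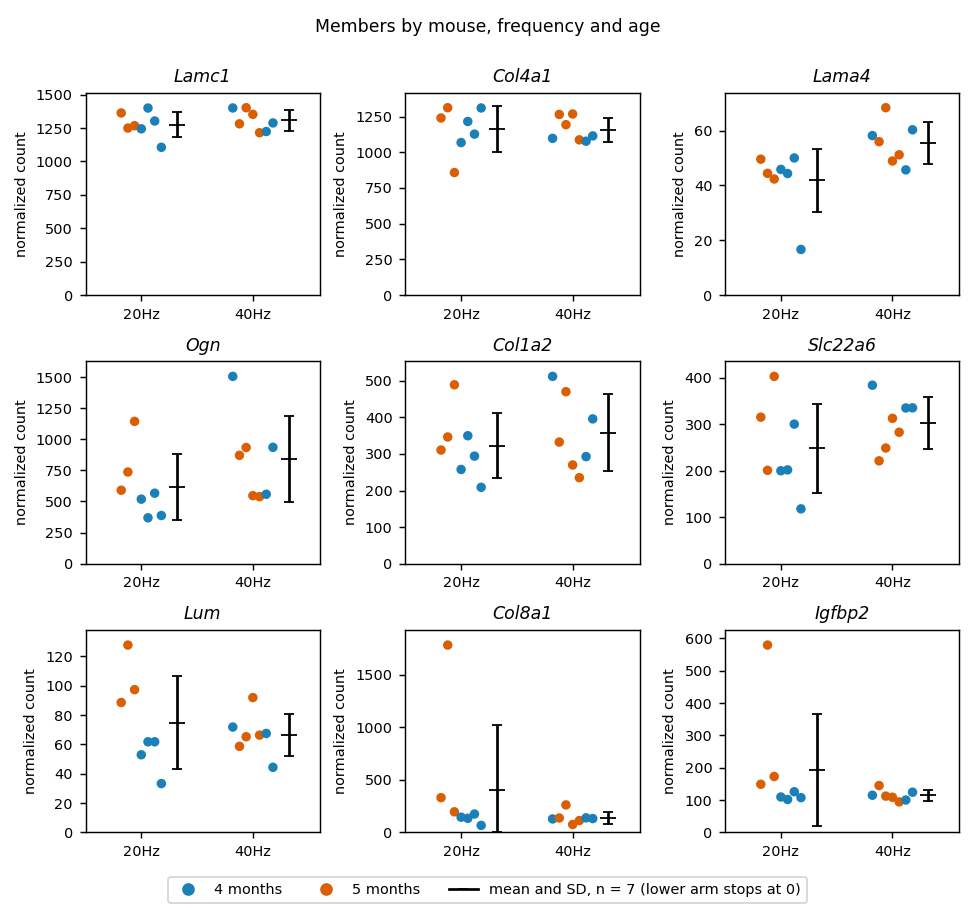
Each point is 1 mouse, the vertical axes give normalized counts from 0, colour marks age, and the bar beside each group is its mean and SD over 7 mice, its lower arm stopped at 0. Lamc1 and Col4a1 are narrow in both groups, Col8a1 and Igfbp2 are set apart by 1 mouse at 20Hz, and the groups overlap in all 9 panels.

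Between the frequencies, none of the 37 tested genes passed the adjusted threshold of 0.05 in limma, and 0 of all 10689 tested genes did (0.0%). The smallest adjusted p in the set was 0.919. At an unadjusted p under 0.05, 1 of the 37 was higher at 40Hz (Lama4, 2.70%), where 2.76% of all tested genes were, and 0 were lower, where 2.11% of all were. With edgeR's quasi-likelihood test on the recovered reads, 1 was higher (Lama4) and 1 lower (Col8a1) at that level. Of all tested genes, 2.71% were higher and 2.30% lower. DESeq2 gave the same 2 genes, with 2.70% of all higher and 2.45% lower. Without 20Hz replicates 1 and 2, Col8a1 was no longer called in edgeR, at a log2 difference of -0.023 against -1.52 with all mice. In that fit Col19a1 and Slc6a20a had an unadjusted p under 0.05 beside Lama4, all higher at 40Hz. The share of all genes called in this edgeR fit is not given here, so its count cannot be set against one. Limma without 20Hz replicates 1 and 2 gave the same 3 of 36 genes higher, where 3.20% of all were in limma. The count of genes higher in limma ranged with 1 mouse left out from 0 (without 40Hz replicate 1, 3 or 7) to 5 (without 20Hz replicate 3). Of all tested genes, 1.88%, 1.92% and 2.66% were higher in the fits with 0, and 2.70% in the fit with 5. Without 20Hz replicate 7, Lama4 was no longer counted and Col26a1 was the 1 gene left, where 2.06% of all were higher. In no gene of the set did the 7 and 7 mice fail to overlap, a pattern seen higher at 40Hz in 0.0281% and lower in 0.00936% of all tested genes.

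By direction alone, 24 of the 37 differences were above 0 and 13 below, where 48.8% of all tested genes were above 0. The median was 0.081 on the log2 scale in the set and -0.0035 over all tested genes. The 6 tested laminins, the 3 transport and retinoid genes and both collagen VI chains were all above 0, and Igf2, Igfbp2 and the 3 network and anchoring collagens were all below. Markers of some other cell types lay mostly on 1 side of 0. Above 0 were 8 of 9 tested other meningeal fibroblast markers (median 0.36) and 5 of 5 of pericytes and smooth muscle (median 0.26, 1 with an unadjusted p under 0.05). So were 4 of 4 red blood cell markers (median 0.23) and 8 of 11 endothelial markers (median 0.11). Below 0 were 7 of 7 choroid plexus markers (median -1.73) and 4 of 4 dentate gyrus markers (median -1.04). Astrocyte and oligodendrocyte markers were each split 3 to 3. Of cortical excitatory neuron, inhibitory neuron and striatum markers, 4 of 7, 1 of 5 and 1 of 3 were above 0. Their part in these signs was not tested. Signs of differences this close to 0 depended on the mice included: without 40Hz replicates 1 to 3, which with 20Hz replicate 3 had the highest summed red blood cell markers (7012 to 7665, against 3100 to 5628 in the other 10 mice), the median was -0.075, and Lama2, Lamb1 and Lamc1 were among the genes then below 0. The 95% interval lay within a log2 difference of 1 to either side for 31 of the 37.

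**Figure D3:**
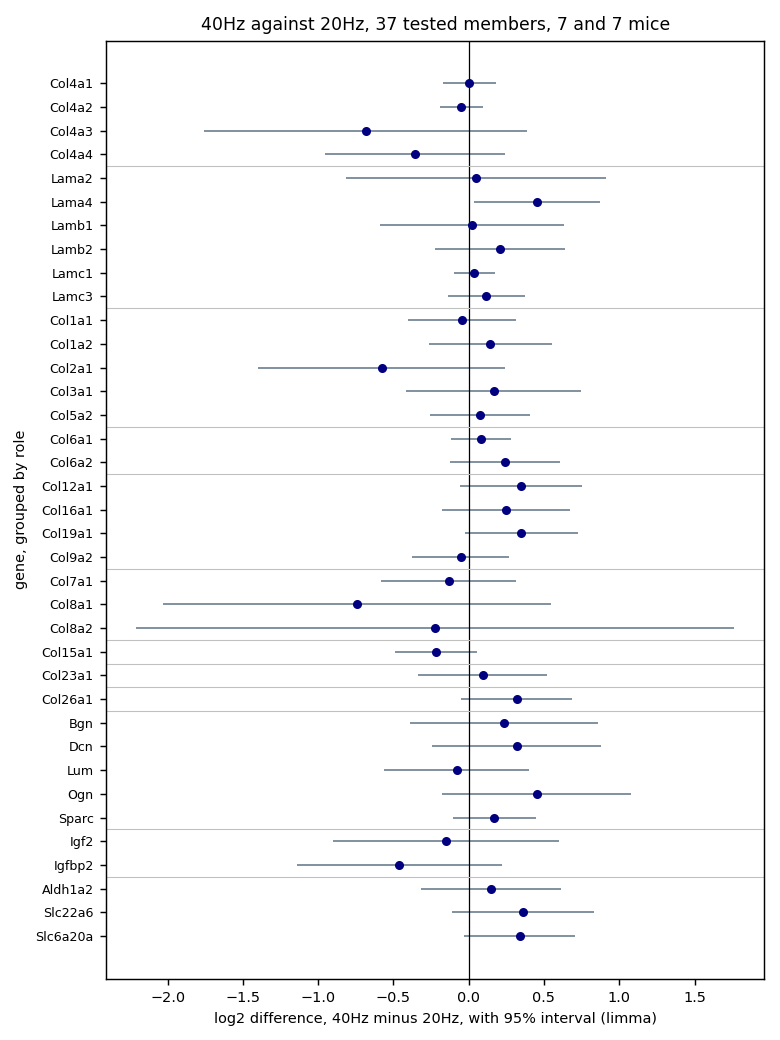
Points give the log2 difference, 40Hz minus 20Hz, for the 37 tested genes grouped by role, and bars its 95% interval from limma, with 7 mice in each group. Only the bar of Lama4 (0.04 to 0.87) leaves out 0, and those of Col8a1, Col8a2 and Col4a3 are the widest.

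Genes that make, bind or cut these proteins were read from lists of non-members. Of 16 tested genes of collagen synthesis, 5 had differences above 0 and none had an unadjusted p under 0.05; Ppib, a prolyl isomerase of the collagen-folding complex, had a log2 difference of -0.17 ± 0.10 (SE). Of 9 other basement membrane genes, 5 were above 0, and Agrn, the heparan sulfate proteoglycan agrin, had 0.25 ± 0.13 (SE). Of 15 receptors, 7 were above 0 and 1, Itga1, the alpha chain of a collagen-binding integrin, had an unadjusted p of 0.00843, at 0.41 ± 0.14 (SE). Of 10 genes of matrix degradation, 5 were above 0, and Mmp14, a membrane-bound collagenase, had -0.26 ± 0.095 (SE) with an unadjusted p of 0.0133. The adjusted p was 0.919 for Itga1 and Mmp14, so no gene of these lists passed.

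Age was tested in a model that held frequency and age, with 7 mice of each age. None of the 37 genes passed the adjusted threshold, nor did any of all tested genes (0.0%). At an unadjusted p under 0.05, 2 of 37 (5.41%) were higher at 5 months, where 3.26% of all tested genes were, and 0 were lower, where 4.6% of all were. For lumican, the 4-month mice ranged from 33.3 to 71.8 (median 61.8) and the 5-month mice from 58.7 to 128 (median 88.6), with overlap between 58.7 and 71.8. Its log2 difference was 0.61 ± 0.19 (SE), with an unadjusted limma p of 0.00445 and an adjusted p of 0.546. Decorin ranged from 22.7 to 76.7 at 4 months and from 59.4 to 115 at 5 months, with a log2 difference of 0.58 ± 0.23 (SE), an unadjusted limma p of 0.0198 and an adjusted p of 0.565. The difference was above 0 for 31 of 37 genes, with a median of 0.094, where the median over all tested genes was -7.9e-05. Without 20Hz replicates 1 and 2, both 5 months old, it was above 0 for 23 of 36 with a median of 0.064, and neither lumican nor decorin kept an unadjusted p under 0.05.

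Whether the frequency difference depended on age was tested with a product term, the difference at 5 months minus that at 4 months. No gene of the set passed the adjusted threshold, nor did any of all tested genes (0.0%). At an unadjusted p under 0.05 the term was below 0 for 9 of 37 genes (24.3%), where it was for 2.1% of all tested genes, and above 0 for 0, where it was for 1.68% of all. These 9 were Col1a2, Col4a4, Col8a2, Col12a1, Col15a1, Igfbp2, Lum, Ogn and Slc22a6. The median term was -0.53 in the set and 0.003 over all tested genes. It was below 0 for 26 of 37 and above for 11, where it was above 0 for 50.6% of all tested genes. With 1 mouse left out the count ranged from 4, without 40Hz replicate 1 (1.86% of all tested genes in that fit), to 13, without 40Hz replicate 6 (2.70% of all). Leaving out replicate 7 at 20Hz, or replicate 5 or 7 at 40Hz, gave 5 each time, where 1.76%, 1.77% and 1.63% of all were below 0. Without 20Hz replicates 1 and 2 together, replicate 3 was the only 5-month mouse left at 20Hz, so only the size of the term is given. Its median was then -0.27 in the set and -0.004 over all tested genes.

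The frequencies were also compared within each age. At 4 months, with 4 mice at 20Hz and 3 at 40Hz, 7 of 36 genes (19.4%) were higher at 40Hz at an unadjusted p under 0.05, where 2.34% of all genes tested at that age were, and 0 were lower, where 1.84% were. These were Col1a2, Col6a2, Col12a1, Col19a1, Ogn, Slc22a6 and Slc6a20a. For Col12a1, the 20Hz mice (replicates 4 to 7) gave 145, 129, 156 and 174 normalized counts and the 40Hz mice (replicates 1, 6 and 7) gave 324, 218 and 264, with no overlap. Its log2 difference was 0.82 ± 0.16 (SE), with an unadjusted limma p of 0.000162 and an adjusted p of 0.575. Ogn gave 519, 369, 567 and 387 against 1505, 558 and 935, overlapping at 558 to 567, with a log2 difference of 1.03 ± 0.35 (SE). Slc22a6 gave 199.9, 202, 300.4 and 118 against 384, 335 and 335, with no overlap. These 2 were the only genes of the set without overlap at 4 months, both higher at 40Hz, where 2.64% of all genes at that age were, and none was lower, where 2.11% were. With 1 mouse left out, 5 to 9 genes were higher at an unadjusted p under 0.05, apart from 2 without 40Hz replicate 7. In these fits 1.53% to 3.61% of all genes were higher. Without 40Hz replicate 7, 1 gene was lower (Col9a2), where 1.89% of all were, and in the other fits none was. Without 40Hz replicate 1 the difference for Ogn was 0.67. None passed the adjusted threshold, and 0.0% of all genes at that age did.

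At 5 months, with 3 mice at 20Hz and 4 at 40Hz, 6 of 37 genes (16.2%) were lower at 40Hz at an unadjusted p under 0.05, where 2.01% of all genes tested at that age were, and 0 were higher, where 2.48% were. These were Col2a1, Col4a4, Col8a2, Col15a1, Igfbp2 and Lum. Both mice with high choroid plexus sums, 20Hz replicates 1 and 2, are in this comparison, and their part in it was not tested. For Igfbp2 the 20Hz mice (replicates 1 to 3) gave 149, 580 and 173 and the 40Hz mice (replicates 2 to 5) gave 145, 112, 109 and 94.3, with no overlap; the log2 difference was -1.11 ± 0.45 (SE). Without 20Hz replicate 2 it was -0.49 ± 0.20 (SE). Only Igfbp2 and Col8a2 had no overlap at 5 months, both lower at 40Hz, where 2.46% of all genes at that age were, and none was higher, where 2.7% were. With 1 mouse left out, 4 to 8 genes were lower at an unadjusted p under 0.05, where 1.47% to 3.91% of all genes were. Without 20Hz replicate 1, 2 genes were higher (Col16a1 and Col26a1), where 2.57% of all were. None was higher in the other fits. Lum gave 88.6, 128 and 97.3 against 58.7, 65.2, 91.9 and 66.3, with replicate 4 at 40Hz inside the 20Hz range. None passed the adjusted threshold, and 0.0% of all genes at that age did.

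The other meningeal fibroblast markers had a like distribution over the 4 combinations of frequency and age. Their summed counts were 2426, 1991, 3182 and 1572 in the 4-month mice at 20Hz and 5230, 2962 and 4594 in those at 40Hz, against 3300, 3843 and 5060 in the 5-month mice at 20Hz and 3663, 4393, 2420 and 2765 in those at 40Hz. The product term was below 0 at an unadjusted limma p under 0.05 for 4 of the 9 tested markers, where it was for 2.1% of all tested genes. It was so too for 3 of 7 choroid plexus and 1 of 11 endothelial markers. Above 0 at that level were 3 of 6 oligodendrocyte and 1 of 5 inhibitory neuron markers, where 1.68% of all tested genes were. The other cell type lists had none either way. The share of leptomeninges in each sample was not measured. Its part in the differences between the frequencies at each age was not tested.

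**Figure D4:**
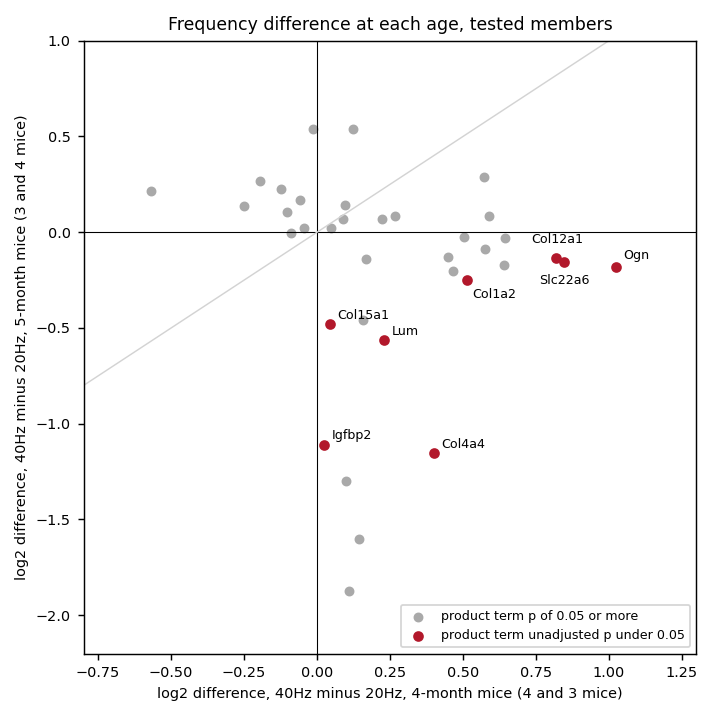
The horizontal axis gives the log2 difference, 40Hz minus 20Hz, among 4-month mice and the vertical axis that among 5-month mice, 1 point per gene, with equality as the grey line. The named points, whose product term had an unadjusted p under 0.05, lie below the line; Col8a2 is not drawn because its mean was under 10 normalized counts at 4 months.

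Pairs of genes were compared by the correlation of log2 counts over the 14 mice. Of 15 pairs compared, 11 came from a fixed list and 4 were added after their values were seen. Listed pairs with Col4a5, Col4a6, Fn1 or Slc6a13 were left out, as these genes were not analysed here. A pooled correlation was given for 14, and p-values of two-sided permutation tests were adjusted over those 14. Col4a1 and Col4a2, the head-to-head pair, had r = 0.845 (p = 0.00017, adjusted p = 0.000933) and rho = 0.758 (p = 0.00242). The correlation was 0.931 within the 20Hz mice, 0.707 within the 40Hz mice, and 0.679 without the 2 mice farthest from the median. Col6a1 and Col6a2, which also lie next to each other in RefSeq, had r = 0.806 (p = 0.00088) and rho = 0.851 (p = 0.00018). Their r was 0.713 without the 2 farthest mice. Col1a2 and Col3a1, which are not neighbours, had r = 0.760 (p = 0.00121) and rho = 0.578 (p = 0.0321, adjusted p = 0.0749), and r was 0.538 without the 2 farthest. Col1a1 and Col1a2, the chains of one collagen I molecule, had r = 0.583 (p = 0.028, adjusted p = 0.0491), rho = 0.547 (p = 0.0456, adjusted p = 0.0912), and r was 0.597 without the 2 farthest. The adjustment included the 4 added pairs, whose smaller p-values lower the adjusted p of this pair. With only the listed pairs in the adjustment, the adjusted p of Col1a1 and Col1a2 would lie above 0.05. Without 20Hz replicates 1 and 2 its r was 0.622 (permutation p = 0.0268, adjusted p = 0.0502), which did not pass.

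The other listed pairs did not pass over all 14 mice, even with the added pairs in the adjustment. Lamb1 and Lamc1, partners in a laminin trimer, had r = 0.282 (p = 0.322) and rho = 0.477 (p = 0.0865). Without 20Hz replicates 1 and 2 their r was 0.727 (permutation p = 0.0069, adjusted p = 0.0148), which passed. Lama2 and Lamb2 had r = 0.025 (p = 0.932) and rho = 0.0066 (p = 0.988). Igf2 and Igfbp2 had r = 0.524 (p = 0.110) and rho = 0.121 (p = 0.680), and without the 2 farthest mice, 20Hz replicates 2 and 7, r was -0.261. Sparc and Col4a1 had r = 0.136 (p = 0.633) and rho = 0.323 (p = 0.260). Against vessel markers, Col4a1 had r = 0.191 (p = 0.497) and rho = 0.213 (p = 0.467) with the endothelial receptor Flt1, and Lama2 had r = 0.277 (p = 0.339) and rho = 0.213 (p = 0.464) with the pericyte gene Rgs5. Igfbp2 and the choroid plexus gene Ttr got no pooled value, because Ttr split into 2 mice at 2037 and 13256 and 12 mice at 9.08 to 55.0.

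Ogn and Slc47a1, a transporter of the leptomeninges, were added after their values were seen, so no p is given. Their r was 0.925 and rho 0.851, with 0.861 within the 20Hz mice and 0.969 within the 40Hz mice. Col1a2 and Ogn had r = 0.831 and rho = 0.789, and Aldh1a2 and Slc22a6 had r = 0.830 and rho = 0.666. Without the 2 farthest mice, r was 0.856 for Ogn and Slc47a1, 0.721 for Col1a2 and Ogn, and 0.519 for Aldh1a2 and Slc22a6, which was 0.516 within the 40Hz mice. Col4a3 and Col4a4, neighbours on chromosome 1, had r = 0.732, with 0.800 within the 20Hz mice and 0.282 within the 40Hz mice. Their r was -0.110 without 20Hz replicate 2 and 40Hz replicate 5, and 0.186 without 20Hz replicates 1 and 2. Both of these leave out 20Hz replicate 2, the highest mouse for each gene. All values of a pair come from the same libraries, so depth and tissue content are shared between the genes.

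**Figure D5:**
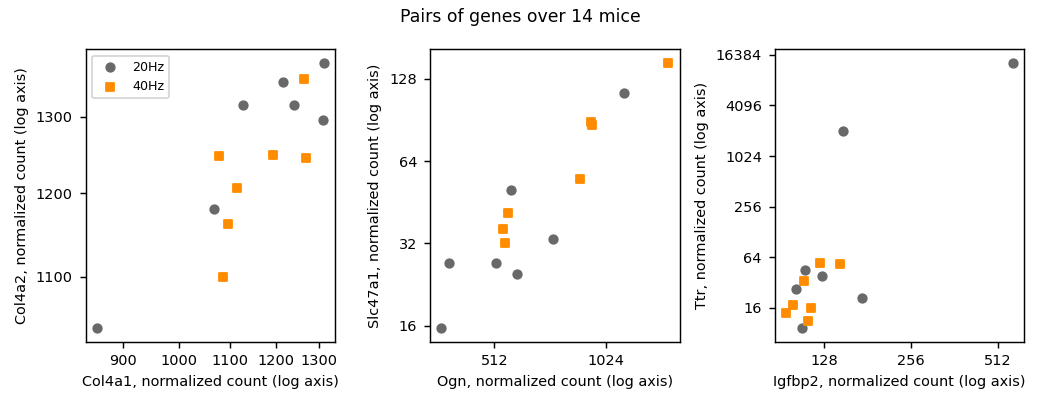
Each point is 1 mouse, with normalized counts of the genes of a pair on log axes and the frequency given by shape and colour. Col4a1 and Col4a2 span a narrow range together, Ogn and Slc47a1 line up over both frequencies, and 2 mice at 20Hz stand far above the rest in Ttr, 1 of them also high in Igfbp2.

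The 6 genes under the minimum gave few reads. Lama3, the alpha chain of epithelial laminin, ranged from 3.55 to 14.1 normalized counts, from 2 to 14 reads. Col5a1, the partner chain of Col5a2, ranged from 0.926 to 16.0, from 1 to 10 reads. Col20a1 and Col24a1 were at 0 reads in some mice and reached 10 and 14, and Col27a1 and Col28a1 stayed between 1 and 7 reads. Fitted without the minimum, none of the 6 passed the adjusted threshold or had an unadjusted p under 0.05 in limma.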

How the data were processed

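RNA-seq of visual cortex from 14 mice was used. The deposited table holds a signal value per gene and sample, made by the authors from read counts with 1 scaling factor per sample; this reading comes from the values, 100% of which were whole multiples of the value of 1 read within 0.01 read. Build GRCm39 and DESeq2 are named per the submitters' processing notes, without versions or roles. The aligner, the counter, the annotation and the strandedness were not given in the sources used here, so reads where genes overlap cannot be assigned by strand. All columns matched a sample (0 did not).

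Samples were grouped by the labelled frequency. Values were taken as log2(normalized count + 1), which understates differences of low genes, and genes with a mean of 10 or more were fitted with limma 3.58.1 in R 4.3.3 (trend and robust variance shrinkage), with Benjamini-Hochberg adjustment over all 10689 genes. Models held frequency, frequency and age, or both and their product; the fits within an age, and edgeR without 20Hz replicates 1 and 2, were added after the data were seen. Recovered reads, 6108717 to 13744933 per sample, served edgeR 4.0.16 and DESeq2 1.42.0 as alternatives. At this depth the median standard error of the frequency difference was 0.20 for the 37 genes and 0.14 for all. Intervals are 95% intervals of the fit. Correlations used 100000 permutations. The scripts were tested on simulated data.

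The genes and lists were chosen with earlier results of these data known. Values by mouse were to be given for a panel of genes, the 4 genes with the smallest p per direction of frequency, the 6 with the widest range, the 2 with the smallest p per direction of age and 1 for the product; the report gives further genes by their range. Mice were taken as separate clusters for a pair where a gap over 0.4 of the range left at least 2 mice on each side, a rule set after seeing the data. Same-numbered mice of both frequencies correlated between -0.132 and 0.08 in their deviations, so the numbers do not pair the samples. No samples of a group were duplicates, the lowest chi-square per degree of freedom being 5.17. Promoters and gene neighbours come from RefSeq on GRCm38.p6. Protein sequences were not used here.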

Additional observations from a re-analysis of the deposited data

Results flagged for a closer look

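In 74 groups of 7 mice, 2 for each of the 37 tested genes, 10 had a flagged mouse. Its gap to the nearest other was above Dixon's critical share of the group's range. Gap and range were taken on log2(normalized count + 1), so the normalized counts printed here do not give these shares directly. By the test's nominal rate, chance flags about 1 group in 20. The rate over all tested genes is not given here. A total of 4 of the 10 were 20Hz replicate 2. It stood above the others in Col4a3 (231 normalized counts, others 16.0 to 26.0), Igfbp2 (580, others 102 to 173) and Lamb1 (49.1, others 10.3 to 18.3), and under them in Col9a2 (111, others 181 to 243). This was the mouse with a choroid plexus marker sum of 33216; its part in these values was not tested. 20Hz replicate 7 lay under the others in Aldh1a2 (103, others 221 to 377), Bgn (9.08, others 25.2 to 43.7) and Lama4 (16.6, others 42.4 to 50.1). At 40Hz, Col1a1 was low in replicate 5 (88.4, others 140.4 to 187), Col7a1 was low in replicate 6 (13.1, others 28.4 to 39.4), and Igf2 was high in replicate 1 (144, others 86.0 to 100.1).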

How the results depend on the processing

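No gene of the set passed the adjusted threshold between the frequencies under any alternative run: another pseudocount, no filter, TMM scaling, edgeR, DESeq2, age as a covariate, a replicate block, or leaving out mice. Over all genes the count was 0 in limma and 3 with DESeq2, a difference whose cause was not tested. With the replicate block 0 genes passed, and the median of the 37 was 0.081. In that fit 3 of the 37 were higher at 40Hz at an unadjusted p under 0.05, where 2.64% of all genes were. Of 7 replicates, 2 correlated best with their own number. The median ranged from 0.029 to 0.18 with 1 mouse left out and was -0.075 without 40Hz replicates 1 to 3. For age, 1 gene of all passed without 40Hz replicates 1 to 3; for frequency by age, 0 to 2 of all genes passed with 1 mouse left out, 2 without 20Hz replicate 3. Genes of the set below 0 in that term at an unadjusted p under 0.05 numbered 4 to 13 with 1 mouse left out, against 9. The causes were not tested.

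For the 27 named genes, 663 alternative values were pooled over the frequency, age and product terms. Of these, 46 in 13 genes had the opposite sign, none past the threshold. The smallest adjusted p over the 663 was 0.316, in limma for the product term without 40Hz replicate 6. The values that follow are log2 differences of 40Hz minus 20Hz. Without 40Hz replicates 1 to 3 the log2 differences were -0.15 for Bgn, -0.094 for Col1a2, -0.13 for Col3a1, -0.021 for Col4a1, -0.041 for Col6a1, -0.43 for Lama2, -0.22 for Lamb1 and -0.0047 for Lamc1. Without 20Hz replicates 1 and 2 they were 0.057 for Igf2, -0.23 for Lama2 and 0.17 for Lum. On recovered reads, Col4a1 was -0.0047 with edgeR and -0.0046 with DESeq2, and Lamb1 was -0.13 with both. With 1 mouse left out, the ranges were -0.039 to 0.27 for Aldh1a2, -0.0053 to 0.35 for Bgn, -0.098 to 0.085 for Col1a1, -0.045 to 0.28 for Col3a1, -0.066 to 0.036 for Col4a1, -0.78 to 0.42 for Col8a2, -0.43 to 0.061 for Igf2, -0.20 to 0.33 for Lama2, -0.085 to 0.27 for Lamb1 and -0.25 to 0.066 for Lum. Low counts limit Lama2, Col2a1, Col8a2 and Lamb1 most.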
